A study of Caenorhabditis elegans with 2 samples.

Results

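The nhr genes of Caenorhabditis elegans were examined for binding of PAG-3, the worm relative of the zinc finger repressor Gfi1, which acts in neuron fate. The members are all protein-coding genes named nhr with a number in Ensembl's annotation of WBcel235, except nhr-85. They number 268 of 19973 protein-coding genes, and the rule that picks them uses gene names and no measured value. Binding was mapped by chromatin immunoprecipitation and sequencing in whole hermaphrodites of strain OP154, whose genotype is unc-119(ed3) III; wgIs154. The transgene wgIs154 adds PAG-3 with a C-terminal GFP and FLAG tag, and a GFP antibody was used for precipitation. Larvae of the first stage, L1, had been starved after bleaching and were collected 6 hours after synchronization. There were 2 biological replicates and 1 group. No other genotype or untagged strain was analysed here, and whole larvae mix all cell types.

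Nuclear hormone receptors are transcription factors with a zinc finger domain that contacts DNA and a domain that can bind small lipophilic ligands. Insects and vertebrates carry a small set of them. Nematodes carry many more, most of them derived from a receptor like vertebrate HNF4, and many of the added genes lie in clusters on chromosome V. A few worm receptors have clear orthologues outside nematodes and act in molting, epidermis, neuron identity and sterol signalling. The members were divided into 10 conserved receptors with such an orthologue, 166 expanded receptors on chromosome V and 92 expanded receptors on the other chromosomes. The conserved list follows textbook knowledge of orthology and was not recomputed from sequence, so every share of conserved receptors depends on it.

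The deposited peak set thresholded on the irreproducible discovery rate, called the thresholded set here, held 910 peaks on the ce11 assembly, which is WBcel235. It consisted of the 910 highest regions of a list of 30000 regions called on both replicates together, the pooled list, whose tail is background. Each replicate had its own list of 30000 regions. A region's signal is its height in the units of the authors' caller, which are not stated, so levels were ranked within a list and not compared between lists. Rank 1 is the highest. The promoter window ran from 1000 bp upstream to 200 bp downstream of the gene start, and a gene counted when a summit lay inside it. Read depth was unknown.

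The peaks at nhr genes are described by the sequence at their summits. Windows of 101 bases of ce11 centred on the summit are shown, read along the strand of the gene, for the highest member peak (nhr-87), the 3 promoter peaks on chromosome V (nhr-228, nhr-47 and nhr-142) and the 2 peaks of conserved receptors (nhr-25 and nhr-41). Capitals mark GAGAGA and GACGCA, and words of 8 bases that member peaks share and that were at least 5 times as frequent in the thresholded peaks as in the pooled list. Words were read on either strand and may overlap. The windows were chrIV:1623923-1624023 for nhr-87, chrV:2281729-2281829 for nhr-228, chrV:5505172-5505272 for nhr-47, chrV:5791033-5791133 for nhr-142, chrX:13008183-13008283 for nhr-25 and chrIV:1388369-1388469 for nhr-41. The nhr-142 gene lies on the minus strand and the others on the plus strand.
nhr-87: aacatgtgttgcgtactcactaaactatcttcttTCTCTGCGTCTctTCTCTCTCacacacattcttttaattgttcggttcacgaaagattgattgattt
nhr-228: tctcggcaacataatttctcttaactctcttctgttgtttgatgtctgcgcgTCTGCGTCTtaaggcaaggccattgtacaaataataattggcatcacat
nhr-47: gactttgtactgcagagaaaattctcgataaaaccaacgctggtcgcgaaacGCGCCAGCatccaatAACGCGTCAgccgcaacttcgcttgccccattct
nhr-142: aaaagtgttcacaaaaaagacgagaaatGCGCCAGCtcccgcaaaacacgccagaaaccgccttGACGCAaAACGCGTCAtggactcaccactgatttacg
nhr-25: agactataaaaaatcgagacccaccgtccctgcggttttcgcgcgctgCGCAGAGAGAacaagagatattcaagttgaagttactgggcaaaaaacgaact
nhr-41: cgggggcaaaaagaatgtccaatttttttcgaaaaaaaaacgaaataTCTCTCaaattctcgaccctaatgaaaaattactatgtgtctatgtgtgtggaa

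The nhr-87 and nhr-228 windows shared AGACGCAG on the reverse strand, a word found within 50 bp of 71 of the 910 thresholded summits (7.80%) and of 1.10% of the pooled ones. The nhr-47 and nhr-142 windows shared GCGCCAGC and, nearer to the gene, ACGCGTCA. GCGCCAGC occurred at 15 thresholded summits (1.65%) and at 0.180% of pooled summits. ACGCGTCA occurred at 8 (0.879%) and at 0.143%. The nhr-25 window held GAGAGA overlapping with CGCAGAGA, a word that it shared with nhr-87, and the nhr-41 window held GAGAGA on the reverse strand. Of 41 words of 8 bases shared by at least 2 member windows, these and 2 overlapping words were the 6 past that ratio. They were chosen after their values were seen and were not tested.

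A list of 6 words was searched on both strands within 50 bp of each summit, 3 of them because they were known to be frequent at the thresholded summits. These 3 were GAGAGA and GACGCA together with ATGGCA. Among the 11 member peaks, GAGAGA was found at 3 and GACGCA at 3, while 262 (28.8%) and 109 (11.98%) of all 910 thresholded summits held them. ATGGCA was found at none of the 11 and at 138 of the 910 (15.2%). AATCAC, the core of the site of vertebrate Gfi1, was found at 1, the nhr-31 intron, and at 46 of the 910 (5.05%). AGGTCA, a half-site that many nuclear receptors bind, was found at none of the 11 and at 45 of the 910 (4.95%). CACGTG was found at 1, the nhr-104 promoter, and at 52 of the 910 (5.71%). Of the pooled summits, 5.58% held AATCAC, 2.63% AGGTCA and 2.09% CACGTG. At least 1 of the 3 frequent words was found at 5 of the 11 (45.5%), at 45.7% of the thresholded summits and at 13.2% of the pooled ones. At the 101 lower pooled promoter summits of nhr genes the share was 14.9%. The median GC content of the windows was 40.6% at the member peaks, 43.6% at the thresholded peaks and 34.7% in the pooled list, and its part in these shares was not tested. A word that is absent here is only absent from these windows.

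A thresholded promoter summit was found at 7 of the 268 nhr genes (2.61%, Wilson 95% interval 1.27 to 5.29), close to the 2.56% of all protein-coding genes. The members were nhr-87, nhr-104 and nhr-32 among expanded receptors outside chromosome V, nhr-142, nhr-228 and nhr-47 on chromosome V, and the conserved nhr-25. An intron held a thresholded summit in 4 members (1.49%, 0.582 to 3.77), against 0.996% of all protein-coding genes. These were the conserved nhr-41 and the expanded nhr-27, nhr-31 and nhr-40. The other 257 members had neither kind. Wilson intervals cover counting error only, and neighbouring genes are not independent.

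The highest member peak was at nhr-87. Its summit at 1623973 on chromosome IV lay 56 bp upstream of the start, with a pooled signal of 114 at rank 115. The signal was 87.7 at rank 105 in replicate 1 and 29.1 at rank 160 in replicate 2. Of all protein-coding genes, 1.23% had a promoter peak among the 455 thresholded peaks of higher signal, and 0.373% of members did. The nhr-87 peak was the only such peak of a member. The nearest start of another gene was that of nhr-146, 2832 bp away, and nhr-92 followed at 3879 bp, so a small group of expanded receptors lies around this peak.

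The nhr-25 gene encodes the worm orthologue of the fly receptor FTZ-F1 and acts in the epidermis and in molting. Its summit at 13008233 on chromosome X lay 260 bp upstream, with a pooled signal of 48.1 at rank 715. The signal was 29.0 at rank 1084 in replicate 1 and 17.5 at rank 835 in replicate 2. The peak therefore lay below rank 910 in replicate 1 and above it in replicate 2. The nearest start of another gene, vwa-8, was 16763 bp from the summit.

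The 3 promoter peaks on chromosome V had similar heights. At nhr-142 the summit lay 530 bp upstream, at 5791083, with a pooled signal of 53.2, 36.5 in replicate 1 (rank 661) and 19.95 in replicate 2 (rank 502). That summit was nearer to F44E7.9, whose start was 147 bp away on the opposite strand, and lay in the promoter windows of both genes. At nhr-228 the summit lay 20 bp downstream of the start in an untranslated part of an exon, at 2281779. Its signal was 48.7 in the pooled list, 34.7 in replicate 1 (rank 742) and 17.5 in replicate 2 (rank 837). At nhr-47 the summit lay 31 bp upstream, at 5505222, with a pooled signal of 48.2. It had a signal of 33.6 in replicate 1 (rank 776) and ranked lower in replicate 2, with 11.4 at rank 4890. The promoter of dnj-19, which encodes a DnaJ protein, shares the nhr-47 peak, since its start lay 365 bp from the summit. So 2 of these 3 peaks lay in windows of a second gene.

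The other 2 promoter peaks were at nhr-104 on chromosome IV and nhr-32 on chromosome X. The nhr-104 summit at 4788495 lay 197 bp downstream of the outer gene start and 12 bp upstream of the start of another of its transcripts. Its signal was 57.3 in the pooled list, 37.9 in replicate 1 (rank 604) and 17.2 in replicate 2 (rank 907). The nhr-32 summit at 13251762 lay 202 bp upstream, with 49.1 in the pooled list and 46.3 in replicate 1 (rank 393). Replicate 2 listed no region within 100 bp of it, and its nearest region lay 914 bp away. Both replicates thus listed 6 of the 7 promoter peaks.

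**Figure D1:**
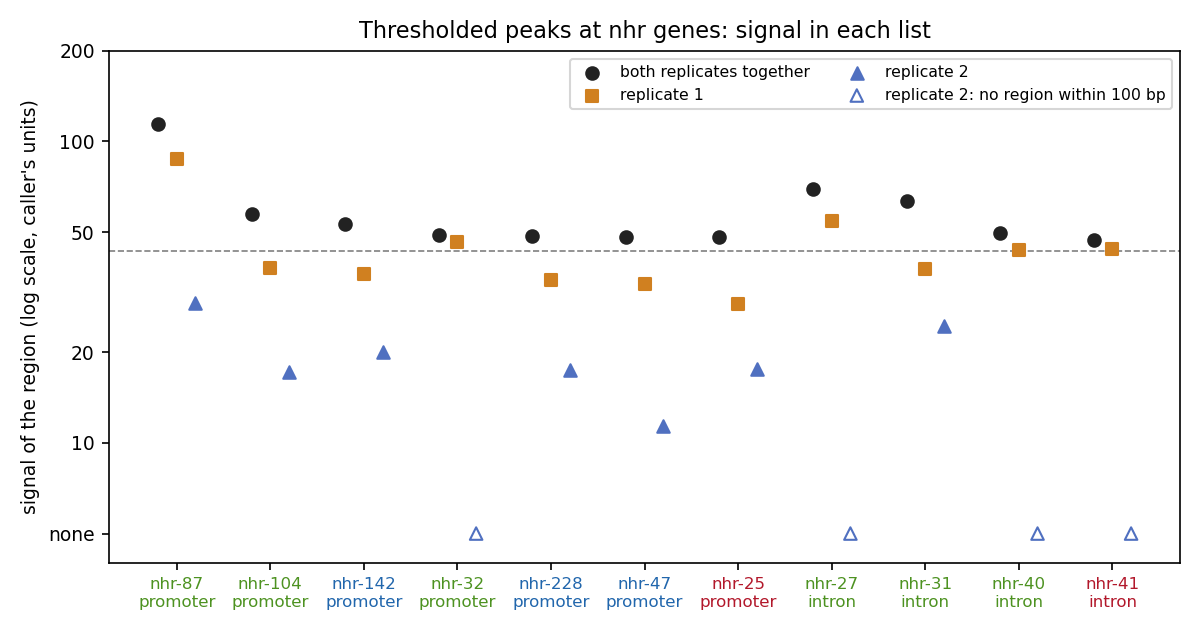
Signal of the 11 thresholded peaks at nhr genes (log axis, caller's units) in the pooled list (circles), replicate 1 (squares) and replicate 2 (triangles). Open triangles mark peaks with no replicate 2 region within 100 bp, and the dashed line is the lowest thresholded signal in the pooled list, 43.4. Gene names are red for conserved, blue for chromosome V and green for other expanded receptors. The nhr-87 peak is the highest in each list, and 4 of the 11 peaks lack a replicate 2 region; levels are not comparable between lists.

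Of the 4 intronic peaks, the highest, in nhr-27, had its summit at 12761606 on chromosome X in the first intron, with a pooled signal of 69.4 (rank 313) and 54.5 in replicate 1 (rank 270). Replicate 2 listed no region within 100 bp, and its nearest lay 225 bp away with a signal of 15.2. This summit was 46712 bp from the nhr-27 start but 472 bp upstream of cept-1, a phospholipid synthesis gene nested inside that intron. The peak can thus be given to either gene.

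The nhr-31 gene is needed for growth of the excretory canal. Its intronic summit at 8028441 on chromosome IV lay 1072 bp downstream of the start, with a pooled signal of 63.6 (rank 374), 37.6 in replicate 1 (rank 618) and 24.5 in replicate 2 (rank 257). The replicate summits lay 90 bp and 86 bp from it. It was the only one of the 4 intronic peaks with a match in both replicates.

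In nhr-40, which acts in embryonic development and body wall muscle, the summit at 2595652 on chromosome X lay 1649 bp into the gene, in the first intron. The start of T03G6.7 was slightly nearer to it, at 1613 bp. Its pooled signal was 49.7 (rank 651) and it had 43.6 in replicate 1 (rank 454), while the nearest replicate 2 region was 1443 bp away. A further thresholded peak of 45.0 lay 1063 bp upstream of the nhr-40 start, just outside the promoter window. In nhr-41, a conserved receptor, the summit at 1388419 on chromosome IV lay 2204 bp into the gene and 237 bp upstream of the start of a shorter transcript. Its pooled signal was 47.1 (rank 752) and its replicate 1 signal 44.0 (rank 443), and the nearest replicate 2 region lay 260 bp away with 14.04.

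Replicate 2 thus matched 7 of the 11 member peaks (63.6%) and 773 of all 910 thresholded peaks (84.9%). Replicate 1 matched all 11 and 883 of the 910 (97.03%). Of the 11 pooled signals, 8 were below the median of the thresholded set, 58.5.

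The conserved receptors were compared with those expanded on chromosome V. A thresholded promoter peak was found at 1 of 10 conserved receptors (10%, 1.79 to 40.4) and at 3 of 166 expanded receptors on chromosome V (1.81%, 0.616 to 5.18). These intervals overlap, and the conserved share rests on nhr-25 alone. Expanded receptors on other chromosomes had 3 of 92 (3.26%, 1.12 to 9.15). The other 4827 protein-coding genes of chromosome V had 90 (1.86%, 1.52 to 2.29), so the share of expanded receptors there was close to that of their chromosome. Outside chromosome V, 2.78% of the genes that are not nhr genes had one. No test was made between the classes.

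Among the conserved receptors, nhr-25 stood alone in the promoter window. The nhr-23 gene, a receptor of the ROR group needed for molting, had a pooled promoter region of 17.2 at rank 14880, 331 bp upstream of its start. Its replicate 1 region there had 13.3 at rank 7416, and the highest replicate 2 region in the window, 7.92 at rank 16482, lay more than 100 bp from it. For nhr-41 the pooled promoter region had 17.1 at rank 15033, and the matching replicate 1 region had 14.5. The highest replicate 2 region in that window, 8.18, lay more than 100 bp from the pooled summit. At nhr-48, a relative of the fly receptor of xenobiotic response, the pooled region had 17.2 at rank 14634. Neither replicate listed a region within 100 bp of it; replicate 1 had one of 15.8 elsewhere in the window. At nhr-111, a receptor of the tailless group, it had 14.5 at rank 23812. Again neither replicate listed a region within 100 bp, and replicate 2 had one of 9.12 elsewhere in the window. These 4 regions lay in the part of the list that includes background.

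No pooled region lay in the windows of the other 5 conserved receptors. Of these, nhr-239 had a replicate 1 region of 7.81 at rank 28315. The nhr-8 gene, which acts in sterol balance and the response to toxins, had a replicate 2 region of 6.94 at rank 22720. The windows of nhr-6, needed for the spermatheca, nhr-67, the worm relative of tailless, and nhr-91, a relative of vertebrate germ cell nuclear factor, held no region in either replicate. The nearest thresholded summit was 19939 bp from the start of nhr-67, 27730 bp from that of nhr-6 and 30583 bp from that of nhr-91.

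Receptors closest to HNF4 had a similar range of values. They were taken as nhr-14, nhr-35, nhr-49, nhr-64 and nhr-69, which count as expanded here. None had a thresholded peak. The highest pooled region was at nhr-69, with 40.2 at rank 1102 and a summit 789 bp upstream. It ranked 559 in replicate 2 (19.4) and 8907 in replicate 1 (12.5), so replicate 2 alone placed it among its 910 highest regions. The nhr-49 gene, a regulator of fat metabolism, had no pooled promoter region, but replicate 1 listed one of 22.5 at rank 1900. The pooled signal was 19.1 at nhr-35 and 13.4 at nhr-64, and the nhr-14 window held no region in any list.

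Among the next highest expanded receptors, nhr-79 had a pooled signal of 36.7 (rank 1399) and nhr-58 one of 34.7 (rank 1606), both on chromosome V. The nhr-79 summit lay 593 bp upstream, with 25.2 in replicate 1 and 11.7 in replicate 2. The nhr-58 summit lay 197 bp upstream, and the matching regions had 16.4 and 15.3. On chromosome II, nhr-119 had 39.0 at rank 1188, with 25.9 and 10.4 and a summit 368 bp upstream. All 3 had a match in both replicates.

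Pooled promoter regions of any height, thresholded ones included, were about as common at nhr genes as over all protein-coding genes. A pooled region lay in the promoter window of 112 members (41.8%, 36.04 to 47.8), against 40.6% of all protein-coding genes. The share was 68 of 166 for expanded receptors on chromosome V (40.96%, 33.8 to 48.6) and 36.5% for the other genes there. It was 39 of 92 for expanded receptors elsewhere (42.4%, 32.8 to 52.6) and 5 of 10 for conserved ones (23.7 to 76.3). In both replicates a region within 100 bp of the pooled summit was listed for 32 members (11.9%), against 12.02% of all genes. These were 15 of the 166 on chromosome V (9.04%), 16 of the 92 elsewhere (17.4%, 10.998 to 26.4) and 1 of the 10 conserved receptors, nhr-25.

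The same comparison was made at several depths of the pooled list. At or above rank 5000, a promoter region was found at 9.04% of expanded receptors on chromosome V, 9.01% of the other genes there and 11.7% of all genes. Expanded receptors on other chromosomes had 17.4% (16 of 92, 10.998 to 26.4). At rank 10000 the shares were 19.3%, 15.1%, 18.8% and, for expanded receptors elsewhere, 23.9%. The conserved receptors had nhr-25 alone at both depths. The interval of each class of expanded receptors holds the share of all genes at rank 10000.

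**Figure D2:**
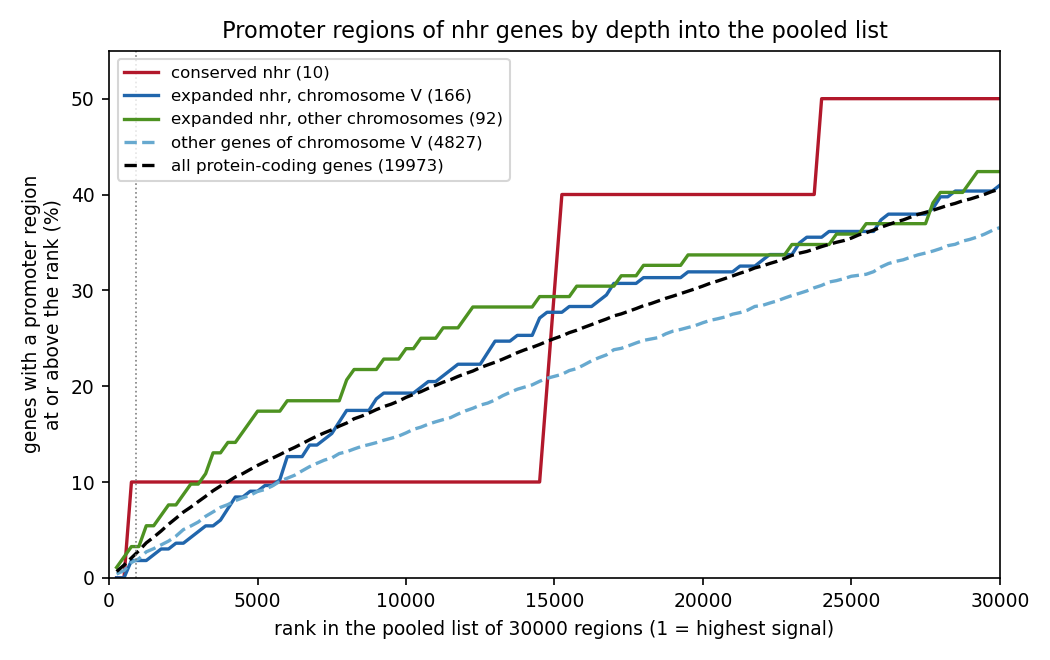
Share of genes (%) whose promoter window holds a pooled region at or above each rank in the list of 30000. Solid lines are the nhr classes, dashed lines the other genes of chromosome V and all protein-coding genes, and the dotted line marks rank 910. The line of expanded receptors on chromosome V runs from 1.81% at rank 910 to 40.96% at rank 30000. At rank 2000 it has 3.01%, below all genes (5.59%) and the other genes of chromosome V (3.83%). At rank 13000 it has 24.7%, above their 22.5% and 18.6%. The line of the 10 conserved receptors moves in steps of 1 gene.

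The 112 promoter regions stood on 108 distinct summits, because 4 summits were each shared by a pair of members. The pairs were nhr-42 with nhr-107, nhr-130 with nhr-212, nhr-148 with nhr-263 and nhr-94 with nhr-152. The summit lay upstream of the start in 98 members and at or downstream of it in 14, and the median position relative to the start was -303.5 bp. Signals ran from 13.2 through a median of 18.9 to 53.2 on chromosome V, and from 13.3 through 20.6 to 114 at expanded receptors elsewhere. The 5 conserved receptors ran from 14.5 through 17.2 to 48.1. Over all 8101 genes with a pooled promoter region, the median was 18.7. Replicate 1 listed a region within 100 bp for 62 of the 112, replicate 2 for 67, and neither for 15.

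**Figure D3:**
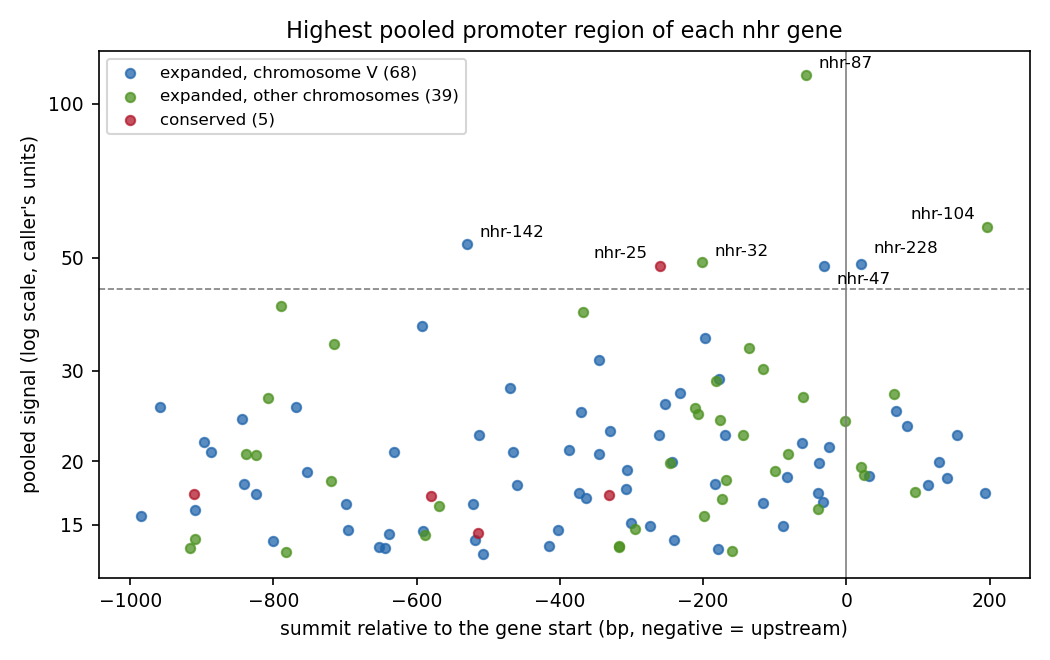
Pooled signal (log axis, caller's units) of the highest promoter region of each of 112 nhr genes against the distance of its summit from the gene start in bp. Colours give the class and the dashed line the lowest thresholded signal, 43.4. The 7 named genes lie above the line; their summits lie from 530 bp upstream (nhr-142) to 197 bp downstream (nhr-104).

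The classes differed in gene structure, which bears on where a summit can fall. The median length of sequence outside all exons was 3526 bp in conserved receptors, 767 bp in expanded ones on chromosome V and 1387 bp in expanded ones elsewhere. The median distance to the next gene model upstream was 5610.5 bp, 1062 bp and 2883 bp in the same order. An intronic peak was found at 1 of 10 conserved receptors, at 0 of 166 on chromosome V and at 3 of 92 elsewhere (3.26%). Of the other genes on chromosome V, 0.870% had one. For 0 of 166 the upper end of the Wilson interval was 2.26%, and a limit of 3 counts gave 1.81%. The part of intron length in these counts was not tested.

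Intronic peaks were counted by the total length of a gene outside all exons. Of 4 members with at least 10000 bp outside exons, 3 had one (nhr-27, nhr-40 and nhr-41), and nhr-1 did not. Of the 32 members with 3000 to 10000 bp, 1 had one, nhr-31 (3.12%), and none of the shorter members, 88 with 1000 to 3000 bp and 144 with less, had one. Among genes that are not nhr genes, 73 of 535 in the longest class had an intronic peak (13.6%) and 71 of 2374 in the next (2.99%). In the shorter classes the shares of these genes were low as well, at 43 of 5005 (0.859%) and 8 of 11791 (0.0678%). The thresholded peaks in nhr-27, nhr-40 and nhr-41 had no replicate 2 region within 100 bp. The nhr-27 peak also lay 472 bp upstream of cept-1. Pooled intronic regions were found at 87 members (32.5%, 27.1 to 38.3), against 27.5% of all genes.

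Per length, members had 3.60 pooled summits in 10 kb of intron, and all protein-coding genes had 2.97. The value was 2.85 for expanded receptors on chromosome V, 2.72 for other genes there, 3.06 for conserved receptors and 4.13 for expanded receptors elsewhere. The nhr-27 gene held 31 of the 187 summits in its 101453 bp, or 3.06 in 10 kb, close to the value over all genes. In nhr-31, 6 summits in 4422 bp gave 13.6 in 10 kb, with the thresholded one at 63.6 and the next at 31.9. The nhr-40 introns held 7, the next being 36.4, and those of nhr-41 held 6, the next being 40.9 at rank 1060. Of the other conserved receptors, nhr-48 had 3 intronic regions, nhr-23 had 2 with the higher at 30.6 (rank 2245), and nhr-25 had 1 of 25.3. The introns of nhr-6, nhr-8, nhr-67, nhr-91, nhr-111 and nhr-239 held none.

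**Figure D4:**
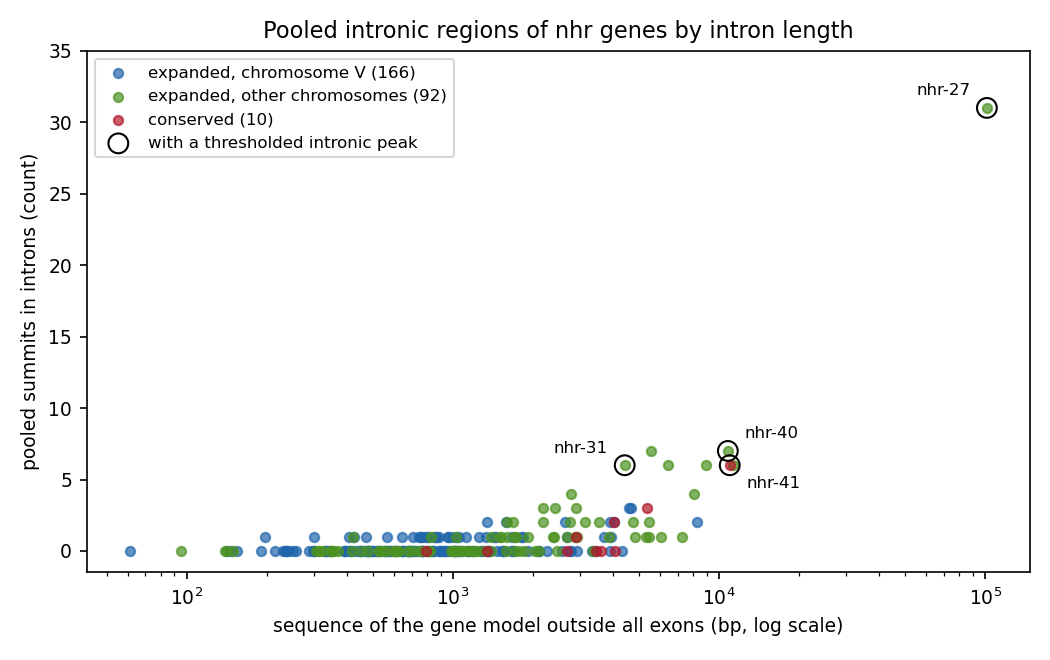
Number of pooled summits in introns of each nhr gene against the length of its gene model outside all exons (bp, log axis). Colours give the class and black rings the 4 genes with a thresholded intronic peak. The ringed genes have 4422 bp or more, and nhr-27 stands apart with 31 summits in 101453 bp.

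Expanded receptors lie close together on chromosome V. There, 107 of 166 had another nhr gene as the next protein-coding start on at least 1 side, as did 29 of 92 expanded receptors elsewhere and none of the 10 conserved receptors. Chromosome V was divided into 3 segments of equal length, and all 3 promoter peaks were in the left segment, which held 78 of the 166. The middle segment held 41 receptors and the right segment 47. For the other genes of the chromosome, 1.63% had a promoter peak in the left segment, 2.85% in the middle and 1.00% in the right. A pooled promoter region was found at 41.03% of the receptors in the left segment, 43.9% in the middle and 38.3% in the right. The corresponding shares of other genes were 35.2%, 42.7% and 31.0%.

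Peaks farther from the start added few members. A thresholded summit lay within 5 kb of the start of 15 members (5.60%, 3.42 to 9.03), against 8.09% of all protein-coding genes. The share was 6 of 166 on chromosome V (3.61%, 1.67 to 7.66) and 6.59% for the other genes there. It was 2 of 10 for conserved receptors (20%, 5.67 to 51.0) and 7 of 92 for expanded receptors elsewhere (7.61%, 3.73 to 14.9). Besides the genes already named, nhr-70 had a peak of 74.4 at 1979 bp upstream of its start. The others, nhr-92, nhr-146, nhr-59 and nhr-227, were counted through the nhr-87 and nhr-228 peaks. The median distance to the nearest thresholded summit was 104422 bp for expanded receptors on chromosome V, against 64903 bp for the other genes there and 49885 bp over all genes. It was 29156.5 bp for conserved receptors and 63640 bp for expanded receptors elsewhere.

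Short words in the promoter sequence were counted from 250 bp upstream to 50 bp downstream of each start, whether or not a region was called there. GAGAGA was found at 83 of 268 nhr genes (30.97%) and at 21.8% of all protein-coding genes. GACGCA was found at 37 (13.8%) against 8.80%. By class, GAGAGA was found at 5 of 10 conserved receptors, 27.7% of those on chromosome V and 34.8% of those elsewhere, and at 19.2% of the other genes of chromosome V. For GACGCA the counts were 0 of 10, 16.3% and 10.9%, against 8.70%. AATCAC was found at 16.04% of nhr genes and 17.03% of all genes. By class, AATCAC was found at 6 of the 10 conserved receptors, 16.3% of those on chromosome V and 10.9% of those elsewhere. Of the other genes of chromosome V, 18.6% held it. ATGGCA was less common at nhr genes, at 6.72% against 10.6% of all genes. AGGTCA was at 10.4% against 8.29%, and CACGTG at 4.10% against 5.84%. The median GC content of the window was 41.5% in conserved receptors and 33.9% in those on chromosome V, so base composition differed between these classes. No word was tested.

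Other genes of nuclear receptor pathways were counted in short lists. Of 5 nuclear receptor genes with other names (daf-12, fax-1, odr-7, sex-1 and unc-55), none had a promoter peak. An intronic peak lay in daf-12, which encodes the receptor of the steroid hormones that govern dauer arrest. Its summit at 10637552 on chromosome X lay 1644 bp into the gene, with a pooled signal of 56.2 (rank 502), 38.8 in replicate 1 and 11.6 in replicate 2. No thresholded peak lay in the windows or introns of 11 genes of steroid hormone synthesis and receptor co-regulators, among them daf-9 and mdt-15. The same held for 6 targets of NHR-49 in fat metabolism, such as fat-7, and for 11 genes of molting, such as mlt-10. Pooled promoter regions were found at 1 of 5, 8 of 11, 3 of 6 and 3 of 11 genes of these lists in the same order, against 40.6% of all protein-coding genes. The background over all genes was 2.56% for thresholded promoter peaks and 0.996% for intronic ones. Counts of 0 or 1 in lists this short therefore say little.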

How the data were processed

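PAG-3 fused to GFP was immunoprecipitated from whole L1 larvae, and 2 biological replicates formed 1 group, with group and replicate number taken from the labels. Per the file headers and descriptions deposited with the samples, the authors made each replicate list and the pooled list of 30000 regions from alignments on ce11 and 1 control file, as input for the irreproducible discovery rate. The thresholded set of 910 was derived from those 3 lists. No source used here names the aligner, the caller or their versions. The signal deposited by the authors has no stated scale and was used only within a list. The ce10 versions were not used. Replicates are separate biological samples per the labels.

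From the deposited lists, summits were placed on Ensembl release 115 genes of WBcel235 with Python 3.11.15, pandas 2.3.3, numpy 2.4.6 and scipy 1.17.1. All regions lay within chromosome lengths. Gene starts were the outer ends of gene models, and introns were gene sequence outside every exon of the same gene. Sequence of a nested gene, such as cept-1 within nhr-27, thus counted as intron of the outer gene. Replicate regions matched within 100 bp. Sequence came from the RefSeq genome of the same assembly. Shares carry Wilson 95% intervals, and a count of 0 allows up to 3 counts. With 1 group and peak lists only, no test was made. The assignment code was tested on simulated data and placed 200 of 200 genes as made.

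Members, classes, gene lists and words were chosen with earlier results of these data known. Named genes were every member with a thresholded promoter or intronic summit, all conserved receptors, the 5 highest pooled promoter regions of each expanded class, and listed genes with a peak. Any other gene was named with its values in view. The alternatives were single replicates, windows of 500 and 2000 bp, all transcript starts, the 455 higher peaks, overlap by 1 base, nearest starts and 5 receptors near HNF4 added to the conserved ones.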

Additional observations from a re-analysis of the deposited data

How the results depend on the processing

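Of 57 recomputed counts, 44 stayed within 1.5 times the reported one; the rest rest on few genes, and the cause of none was tested. With the 455 peaks of higher signal, promoter peaks remained at 1 nhr gene, nhr-87 (0.373% against 1.23% of all genes). They were thus at 0 conserved receptors and at 0 expanded receptors on chromosome V, where 0.704% of the other genes had one. Intronic peaks were then at 2 nhr genes (0.746% against 0.486% of all genes) and 0 conserved receptors. When each summit was given to the nearest start, 11 nhr genes had one (4.10% against 4.11% of all genes), 2 of them conserved. With any transcript start, 2 conserved receptors had a promoter peak, nhr-41 being added. For peaks in single replicates, the 910 highest regions of each replicate list were used. Promoter peaks were then at 6 nhr genes in each replicate (2.24%). Of all genes, 2.47% had one in replicate 1 alone and 2.53% in replicate 2 alone. The promoter counts ranged from 0 to 1 conserved receptors (0 in replicate 1 alone, without nhr-25) and from 3 to 3 on chromosome V. Replicate 2 alone marked 4 of the 7 genes and also nhr-69 and nhr-178, and replicate 1 alone 6 of the 7. The nhr-104 gene was not marked by replicate 2 alone because of the window edge. Its replicate 2 summit, at rank 907, lay 16 bp from the pooled summit but outside the window. Intronic peaks were at 5 nhr genes in each replicate (1.87%), against 1.02% of all genes in replicate 1 alone and 0.961% in replicate 2 alone. The intronic counts ranged from 0 to 1 conserved receptors and from 0 to 1 on chromosome V. Replicate 2 alone shared 1 of the 4 genes, nhr-31. With a 500 bp window, 2 of 10 conserved receptors had a pooled promoter region (20%, against 28.6% of all genes). With 5 receptors near HNF4 added, 8 of 15 had one (53.3%, against 40.6% of all genes and 50% of the 10). With the full list of replicate 1 alone, 104 nhr genes had a promoter region (38.8%, against 40.2% of all genes). With that of replicate 2 alone, 117 did (43.7%, against 39.0%). On chromosome V the count was 58 in replicate 1 (34.9%, against 36.8% of the other genes there). It was 70 in replicate 2 (42.2%, against 35.2%), so the direction of this difference depended on the replicate. Unknown depth and 10 conserved genes limit what these counts can show.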
